A study of Mus musculus with 14 samples.

Results

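The 48 genes described here encode proteins that copy DNA and prepare cells for S phase, and were taken by symbol from the deposited gene tables. All 48 were found among 56941 gene IDs, of which 56131 had a symbol, and all 48 passed the filter on low counts in every comparison. Their RNA was measured by sequencing of polyadenylated RNA from mouse embryos in 14 libraries. At embryonic day 12.5 (E12.5) 3 dcKO and 3 ff libraries came from telencephalon, the embryonic forebrain wall that includes the cortex and the ventral forebrain. At embryonic day 18.5 (E18.5) 4 dcKO and 4 ff libraries came from cerebral cortex. The dcKO (double conditional knockout) embryos combined floxed Sbno1 and floxed Trp53 with the Emx1-Cre driver, which recombines in progenitors of the dorsal telencephalon and not in all cells of the dissected tissue. The labels call the comparison embryos ff and do not say whether they carried the driver. No group carried a single deletion, so the driver and either deletion cannot be told apart.

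Chromosomal DNA is copied once per cell cycle, and the genes fall into 9 roles along that process. The origin recognition complex, Cdc6 and Cdt1 load the MCM2-7 helicase in G1, and Cdc45, GINS and Mcm10 switch it on. Polymerases, the sliding clamp and its loader then extend the strands, while other proteins join Okazaki fragments, supply nucleotides, protect forks and rebuild chromatin. Most of these genes are transcribed under E2F factors as cells enter S phase, so in the embryonic forebrain their RNA marks dividing progenitors more than postmitotic neurons. In bulk tissue, fewer dividing cells and less RNA per cell cannot be told apart.

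The promoters of Dtl, Hells, Orc1, Mcm5 and Mcm6 are shown because E2F motif matches were far more frequent among these genes than in the table as a whole, and because all their matches lie before the start site. The RefSeq table (build GRCm38.p6) held a promoter for 39 of the 48 genes, as 250 bases before to 50 bases after a start site. The motifs searched on both strands were TTTCCCGC, TTTGGCGC, TTTCGCGC and TTTGCCGC, and matches on opposite strands can overlap. A match was present in 16 of the 39 genes (41.0%). The share was 2.26% of all 32851 promoters of that length, 2.6% of their 27025 genes and 4.35% of the 13025 tested genes with a promoter. Each line gives the 160 bases before the start, read along the gene's strand, with matches in capitals.
Dtl (chr1:191575545-191575704, minus strand): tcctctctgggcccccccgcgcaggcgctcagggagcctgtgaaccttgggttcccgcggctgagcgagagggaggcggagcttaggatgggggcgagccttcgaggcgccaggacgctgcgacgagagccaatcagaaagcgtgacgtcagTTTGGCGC
Hells (chr19:38930830-38930989, plus strand): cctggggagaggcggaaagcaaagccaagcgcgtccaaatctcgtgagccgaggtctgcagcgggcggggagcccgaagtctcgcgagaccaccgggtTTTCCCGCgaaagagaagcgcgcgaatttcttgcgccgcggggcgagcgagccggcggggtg
Orc1 (chr4:108579294-108579453, plus strand): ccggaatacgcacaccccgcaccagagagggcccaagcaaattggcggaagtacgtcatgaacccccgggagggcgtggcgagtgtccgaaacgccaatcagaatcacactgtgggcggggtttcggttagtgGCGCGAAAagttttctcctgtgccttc
Mcm5 (chr8:75109349-75109508, plus strand): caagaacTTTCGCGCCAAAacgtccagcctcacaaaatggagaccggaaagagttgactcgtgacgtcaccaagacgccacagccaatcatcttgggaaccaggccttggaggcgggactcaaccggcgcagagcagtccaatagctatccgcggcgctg
Mcm6 (chr1:128359706-128359865, minus strand): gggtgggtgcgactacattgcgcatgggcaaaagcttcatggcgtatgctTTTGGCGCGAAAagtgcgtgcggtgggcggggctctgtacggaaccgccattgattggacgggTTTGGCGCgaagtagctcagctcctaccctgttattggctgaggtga
Dtl and Orc1 hold 1 match each close to the start, and Hells holds 1 farther upstream. In Mcm5 and Mcm6 matches to TTTCGCGC and TTTGGCGC on opposite strands overlap, and Mcm6 has another match nearer the start. The other 11 genes with a match were Mcm3, Mcm7, Cdc6, Cdt1, Gins3, Pola1, Pold1, Rfc3, Lig1, Clspn and Uhrf1. CCAAT was found in 56.4% of the members' promoters, against 37.4% of all promoters and 42.5% of tested genes. TTTGAA, the cell-cycle homology region core of many mitotic promoters, was found in 10.3%, against 17.9% and 14.7%. The median GC content was 62.2% for the members, 60% for tested genes and 52.7% for all promoters. A match is a description of the letters and says nothing of binding.

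Depth was uneven. In 12 libraries the expected counts summed to between 42.0 M and 82.0 M, but E18.5 dcKO replicate 1 had 5.98 M and E12.5 ff replicate 1 had 4.92 M. All 7 dcKO libraries were male by chromosome Y genes and Xist, while 1 of 3 ff libraries at E12.5 (replicate 3) and 2 of 4 at E18.5 (replicates 2 and 4) were female. The choroid plexus transcript Ttr was nearly absent from E18.5 dcKO replicate 3 (1.82 TPM, transcripts per 1000000) and reached 3203 TPM in another library of that group. Sbno1 was at -0.59 at E12.5 (edgeR adjusted p = 0.051) and Trp53 at -0.23 (adjusted p = 0.22). Trp53 was lower at E18.5 (-0.20, adjusted p = 0.032). At E18.5 Sbno1 goes against the label: it had 18.78 to 26.19 TPM in dcKO and 14.72 to 18.43 TPM in ff, so every dcKO library lay above every ff library, while its counts did not differ detectably (-0.03, edgeR adjusted p = 0.68). The floxed exons are not given and whole-gene values cannot show their deletion, so directions at that stage refer to libraries labelled dcKO. Emx1, the driver locus, was lower in dcKO at E12.5 (-0.96) and at E18.5 (-0.81), both past the threshold in edgeR. Nothing in the labels says that libraries came from separate litters, so p-values measure the spread between these libraries.

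Levels per transcript length spanned a wide range among the 48 genes. Pcna, the sliding clamp that holds polymerases on DNA, was the highest in every group, with means of 371 and 406 TPM in E12.5 dcKO and ff and 158 and 129 TPM in E18.5 dcKO and ff. Orc1, the largest subunit of the origin recognition complex, was the lowest in every group, with means of 6.30 and 6.86 TPM at E12.5 and 2.16 and 0.945 TPM at E18.5, dcKO before ff. Subunits of 1 complex were far from equal. Within MCM2-7, Mcm7 was the highest subunit in 14 of 14 libraries and Mcm4 the lowest in 10 of 14, and the highest stood above the lowest by 3.17-fold in E12.5 dcKO and 3.15-fold in E12.5 ff. At E18.5 the same ratio was 4.47 in libraries labelled dcKO and 4.97 in ff. In the clamp loader RFC, Rfc2 was the highest subunit in 14 of 14 libraries and Rfc1 the lowest in 13 of 14. In GINS, the helicase cofactor, Gins3 was the lowest in 14 of 14, and in polymerase alpha-primase Prim1 was the highest and Pola1 the lowest in 14 of 14.

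**Figure D1:**
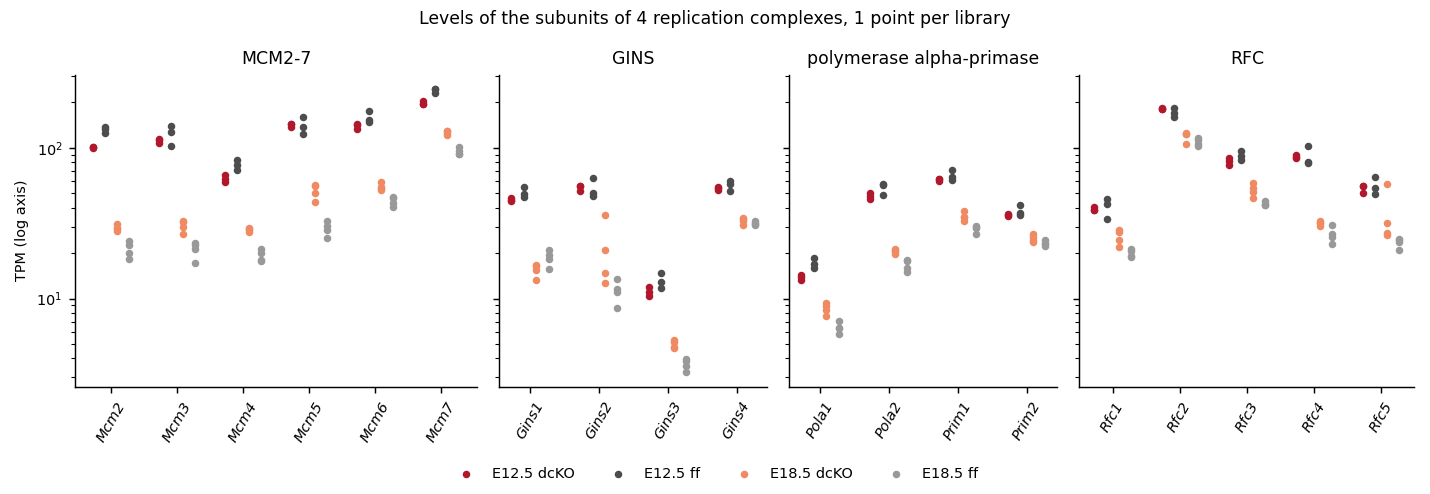
Levels of the subunits of 4 complexes in TPM on a log axis, 1 point per library, coloured by stage and genotype. Mcm7, Rfc2 and Prim1 top their complexes in all 14 libraries, and nearly every subunit sits lower at E18.5 than at E12.5.

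In E12.5 telencephalon 1 of the 48 genes passed the test between genotypes. Timeless, which with Tipin holds the polymerases and the helicase together at the fork, fell in dcKO. It had 18.25, 17.68 and 18.76 TPM in the 3 dcKO libraries, against 33.3, 34.0 and 32.6 TPM in the 3 ff libraries. The 2 groups were far apart and each was tight, with means of 18.2 ± 0.54 TPM in dcKO and 33.3 ± 0.71 TPM in ff (SD, n = 3 each). The change on the log2 scale was -0.89 (SE 0.07, adjusted p = 0.0064 by the quasi-likelihood test of edgeR, Benjamini-Hochberg over all genes). In that comparison 0.151% of 17853 genes were called lower and 0.0392% higher. With dcKO replicate 2 left out Timeless no longer passed in edgeR (-0.87, adjusted p = 0.11), nor with replicate 3 left out (-0.90, adjusted p = 0.063). Each of these fits called 0 of all genes tested. Timeless lies at chr10:128232065-128252941 on the plus strand (GENCODE M21, GRCm38), and its exons overlap those of Gm26847 on the other strand.

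The other 47 genes missed the threshold at E12.5, and most had a lower value in dcKO. By the sign of the fold change 45 of 48 were lower and 3 higher, while 48.4% of all tested genes were lower. Their median log2 fold change was -0.19, against 0.01 over all tested genes, and 23 of the 48 had an unadjusted p under 0.05 in edgeR, as did 19.2% of all tested genes. Deposited TPM of every dcKO library lay below every ff library for 25 of the 48 genes, and above for 0, where 13.3% of all tested genes lay below and 10.1% above. Leaving out ff replicate 3, the female library with the highest summed level, left 37 of 48 lower with a median of -0.12.

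The fork protection genes stood lowest as a role. Clspn, the adaptor that passes the checkpoint signal from stalled forks, had 18.1, 14.5 and 15.4 TPM in dcKO, against 29.2, 22.4 and 26.2 TPM in ff. Its groups did not overlap, and its log2 fold change of -0.59 (SE 0.09) came just short of the threshold (edgeR adjusted p = 0.051). Tipin, the partner of Timeless, averaged 115 TPM in dcKO and 140 TPM in ff, at -0.29 (SE 0.10). Among nucleotide genes Tk1 (thymidine kinase) was at -0.41 and Rrm2 (the regulated subunit of ribonucleotide reductase) at -0.35, both short of the threshold. At the other end, the clamp and loader genes ran from -0.10 to 0.05, and all 6 overlapped between the groups in TPM. Rfc2, Orc6 and Mcm5 were the 3 genes with a positive value, of at most 0.09.

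In E18.5 cortex most of the genes had a positive value. Of the 48 genes 25 rose and 1 fell in libraries labelled dcKO, where 15.6% of 17974 genes were called higher and 16.6% lower. The 25 rose by a median of 1.39-fold, and 9 of them by more than 1.5-fold. By sign 39 of 48 were higher, with a median log2 fold change of 0.25 over the 48 genes, against 0.03 over all tested genes. Deposited TPM of every library labelled dcKO lay above every ff library for 30 of the 48 genes, where 23.1% of all tested genes did so, and below for 0, where 7.56% did so. On the TPM scale all genes shifted up by a median of 0.12 (log2), and the members' median there was 0.33. Timeless, Tipin, Gins4, Prim2, Rfc2 and Ccne1, 0 of them called, were lower in counts and higher in mean TPM at this stage. With 1 library left out at a time, 17 of the 48 genes were called in all 8 fits. Of the other raised genes Mcm6, Rfc1, Fen1 and Ccne2 were called in 7 of 8, Lig1 in 5, Pola1 in 4, Chaf1a in 3 and Pcna in 2.

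**Figure D2:**
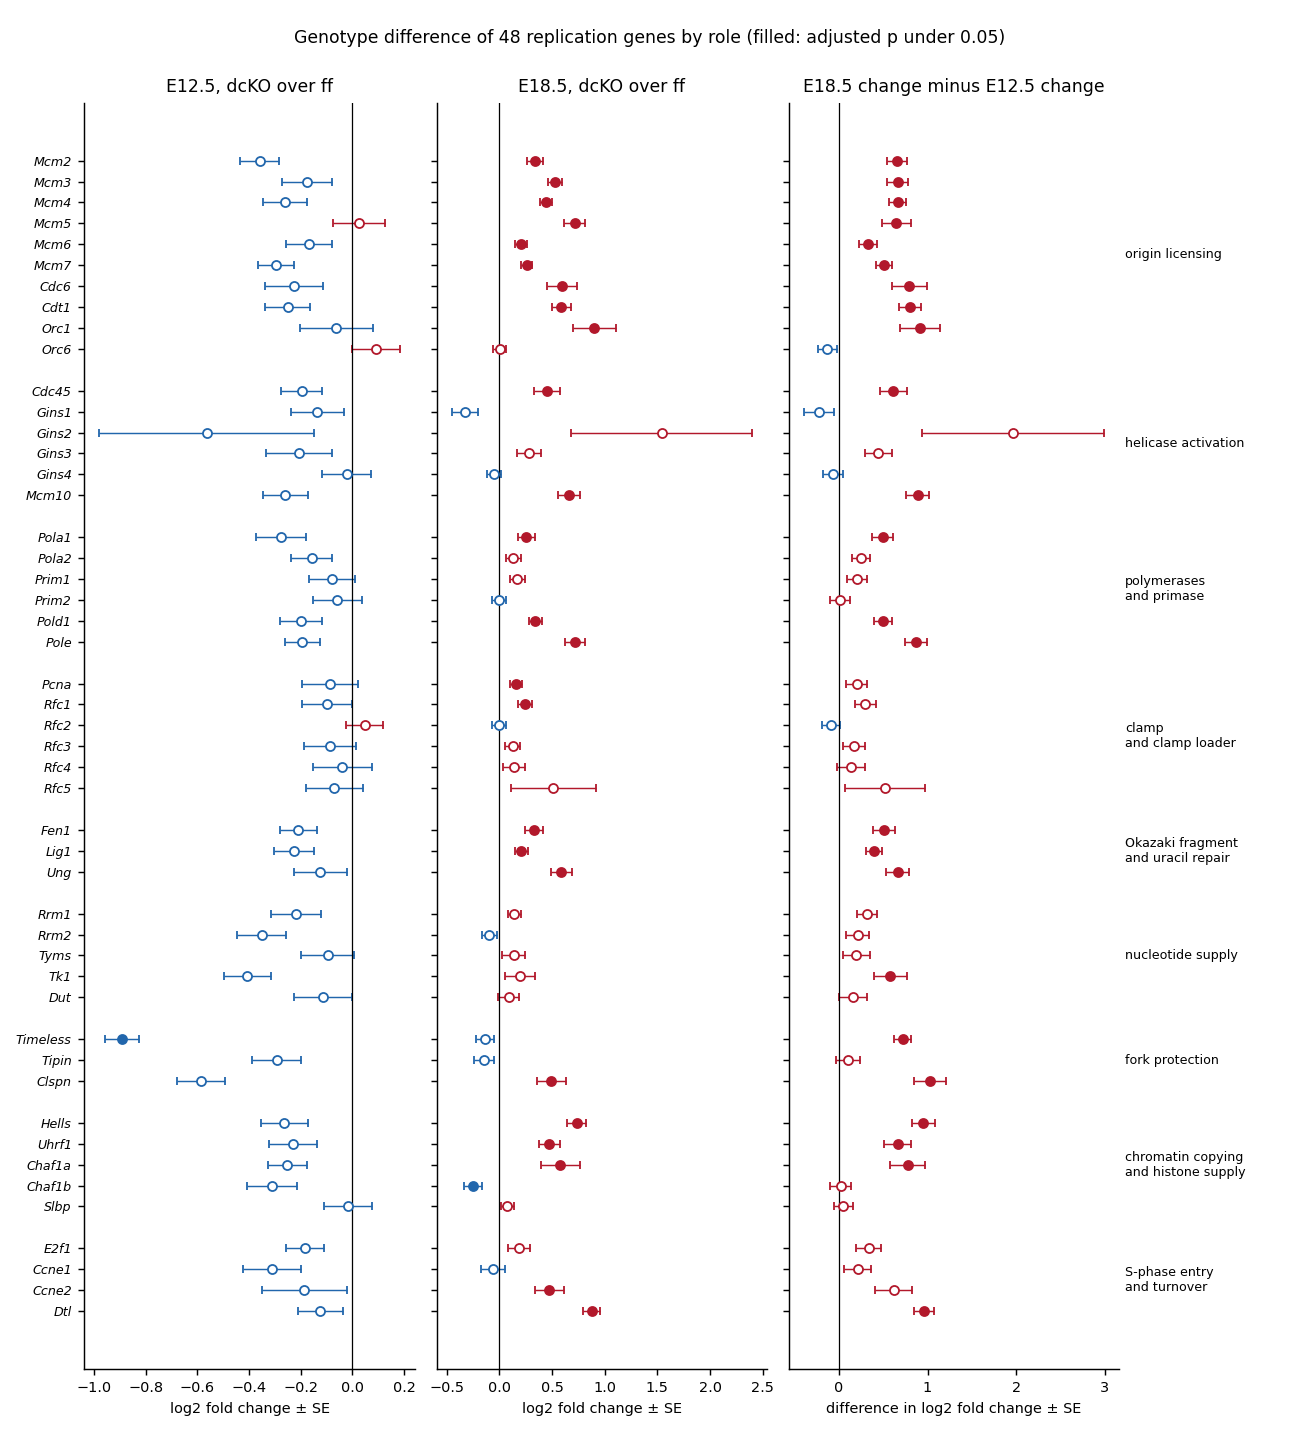
Log2 fold change of each of the 48 genes, dcKO over ff, at E12.5 (left) and E18.5 (middle), and the difference between the stages (right), with bars of 1 SE and genes grouped by role. At E12.5 only Timeless is filled (adjusted p under 0.05), at E18.5 26 genes are filled, and the wide bars belong to Gins2 and Rfc5.

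Origin licensing rose nearly as a whole, with 9 of 10 genes past the test. All 6 MCM2-7 subunits, the ring that becomes the replicative helicase, were among them. Mcm3 had 26.8, 29.9, 32.2 and 32.5 TPM in libraries labelled dcKO, against 17.1, 23.2, 21.3 and 22.8 TPM in ff. Every dcKO value lay above every ff value, and the change on the log2 scale was 0.53 (SE 0.07, edgeR adjusted p = 1.0e-04). Mcm5 rose by 0.72, Mcm4 by 0.44, Mcm2 by 0.34, Mcm7 by 0.26 and Mcm6 by 0.20. Among the loading factors Orc1 rose by 0.90 (SE 0.20), Cdc6, the loader ATPase, by 0.60 and Cdt1, the carrier of the helicase, by 0.59. Orc6, the smallest origin recognition subunit, was the exception with a log2 fold change of 0.0018 (SE 0.06).

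Helicase activation split into genes that rose and genes that did not. Mcm10, which is needed to start the loaded helicase, had 6.09, 7.89, 7.12 and 8.63 TPM in libraries labelled dcKO, against 3.59, 3.86, 3.82 and 4.88 TPM in ff. These groups did not overlap, and the change on the log2 scale was 0.66 (SE 0.10, edgeR adjusted p = 5.1e-04). Cdc45, the helicase subunit recruited with GINS, rose by 0.45. None of the 4 GINS subunits passed the test, with Gins1 at -0.33 (SE 0.12), Gins3 at 0.28 (SE 0.11) and Gins4 at -0.05 (SE 0.07). Gins2 was at 1.54 with an SE of 0.86, a value that rests on the shallow library. It had 60.6 scaled counts per 1000000 (CPM) in E18.5 dcKO replicate 1 and 6.18 to 10.3 CPM in the other 7 libraries. The shallow E12.5 library also stood out in counts, at 79.7 CPM against 28.9 to 34.2 CPM in the other 5. In TPM it was not raised, at 48.14 against 50.44 to 62.98 TPM in the other 5. Rfc5 also stood out at E18.5, with 63.5 CPM in the shallow library and 21.04 to 23.05 CPM in the other 7.

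Among polymerase genes 3 of 6 rose. Pole, the catalytic subunit of the leading-strand polymerase epsilon, had 10.1, 7.45, 8.62 and 8.11 TPM in libraries labelled dcKO, against 4.49, 6.84, 5.09 and 4.97 TPM in ff. The lowest dcKO value was above the highest ff value, and the change on the log2 scale was 0.72 (SE 0.09, edgeR adjusted p = 1.5e-04). Pold1, the catalytic subunit of polymerase delta, rose by 0.34 and Pola1, that of polymerase alpha, by 0.26. Pola2 (0.13, SE 0.07), Prim1 (0.17, SE 0.07) and Prim2 (-0.01, SE 0.07), the partners that help lay down primers, missed the threshold.

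The clamp and its loader moved little in counts. In TPM their summed level was 1.21-fold that of ff, against 1.245-fold over the 48 genes. There 4 of the 6 genes were higher in every library labelled dcKO than in every ff library, as were 23.1% of all tested genes. Rfc1, the large loader subunit, had 28.4, 21.8, 24.5 and 27.6 TPM in libraries labelled dcKO, against 19.0, 21.2, 18.78 and 20.6 TPM in ff. The groups were separate but close, at 0.24 (SE 0.06, edgeR adjusted p = 0.013), and the call was lost without ff replicate 1 (adjusted p = 0.054). Pcna rose by 0.16 (SE 0.06), a call lost in 6 of the 8 fits with 1 library left out (adjusted p up to 0.19 in edgeR). Rfc2, Rfc3 and Rfc4 missed the threshold, at -0.0033, 0.13 and 0.14 with an SE of at most 0.10.

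All 3 genes of Okazaki fragment joining and uracil removal rose. Ung, the glycosylase that removes uracil from new DNA, had 15.2, 14.97, 13.6 and 12.2 TPM in libraries labelled dcKO, against 6.63, 9.84, 8.16 and 9.01 TPM in ff. No values overlapped, and the change on the log2 scale was 0.59 (SE 0.10, edgeR adjusted p = 8.1e-04). Fen1, the flap nuclease, rose by 0.33, and Lig1, the replicative ligase, by 0.21.

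Nucleotide supply was the role in which 0 of 5 genes passed the test at E18.5. Rrm1, the large subunit of ribonucleotide reductase, came closest, with 46.5, 54.4, 50.7 and 50.3 TPM in libraries labelled dcKO, against 37.0, 44.9, 43.7 and 47.2 TPM in ff. The shallow dcKO library lay inside the ff range, and the change on the log2 scale was 0.14 (SE 0.06, edgeR adjusted p = 0.084). Tyms (thymidylate synthase, 0.14), Tk1 (0.20) and Dut (dUTPase, 0.09) had positive values and Rrm2 a negative one (-0.10), with an SE of 0.07 to 0.14. In edgeR the unadjusted p was under 0.05 for 1 of the 5 genes and for 43% of all tested genes.

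Fork protection divided at E18.5. Clspn had 15.5, 5.89, 5.79 and 5.75 TPM in libraries labelled dcKO, against 2.85, 5.12, 4.16 and 4.25 TPM in ff. The first of these is the shallow library, which stood far above its group in TPM and less so in CPM (14.5, against 11.002 to 11.5 in the other 3). The change on the log2 scale was 0.49 (SE 0.14, edgeR adjusted p = 0.018), and the call was lost with the shallow library and replicate 3 left out together (adjusted p = 0.087). Timeless overlapped between the groups, at 11.5, 7.42, 8.49 and 7.52 TPM in libraries labelled dcKO and 6.46, 8.55, 7.59 and 9.85 TPM in ff (log2 fold change -0.13, SE 0.09). Tipin was at -0.15 (SE 0.09).

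Chromatin copying held the 1 gene that fell. Hells, a remodelling ATPase that supports DNA methylation of new chromatin, had 15.6, 15.9, 12.8 and 13.02 TPM in libraries labelled dcKO, against 5.87, 6.69, 6.26 and 6.35 TPM in ff. The lowest dcKO value lay far above the highest ff value, and the change on the log2 scale was 0.73 (SE 0.09, edgeR adjusted p = 9.1e-05). Uhrf1, which recruits the maintenance methyltransferase, rose by 0.48. Chaf1a, the large subunit of chromatin assembly factor 1, rose by 0.58 (SE 0.18), with 50.5 CPM in the shallow dcKO library and 28.7 to 30.9 CPM in the other 3, against 22.2 to 24.6 CPM in ff. Without the shallow library its value was 0.37 (edgeR adjusted p = 0.0016), and leaving out dcKO replicate 4 or any 1 ff library ended the call (adjusted p of 0.067 to 0.13). Chaf1b, the partner of Chaf1a in the same complex, had 20, 16.8, 17.2 and 14.6 TPM in libraries labelled dcKO, against 16.9, 18.6, 17.8 and 17.8 TPM in ff. These values overlap, and its fall in counts was small (log2 fold change -0.25, SE 0.08, edgeR adjusted p = 0.032). The call was lost in 10 of 21 alternatives, among them sex as a covariate (adjusted p = 0.12), and 4 of the 8 fits with 1 library left out. Slbp, which binds histone messages, was at 0.08 (SE 0.06).

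The genes of S-phase entry and turnover included the lowest p of all 48 at E18.5. Dtl, the substrate receptor that marks Cdt1 for destruction in S phase, had 10.9, 11.3, 10.1 and 10.5 TPM in libraries labelled dcKO, against 4.78, 5.72, 5.33 and 5.60 TPM in ff. Both groups were tight, and the change on the log2 scale was 0.88 (SE 0.08, edgeR adjusted p = 1.2e-05). Ccne2 (cyclin E2) rose by 0.48. Ccne1 (cyclin E1) was at -0.06 (SE 0.11) and E2f1, the transcription factor itself, at 0.18 (SE 0.11), both short of the threshold.

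**Figure D3:**
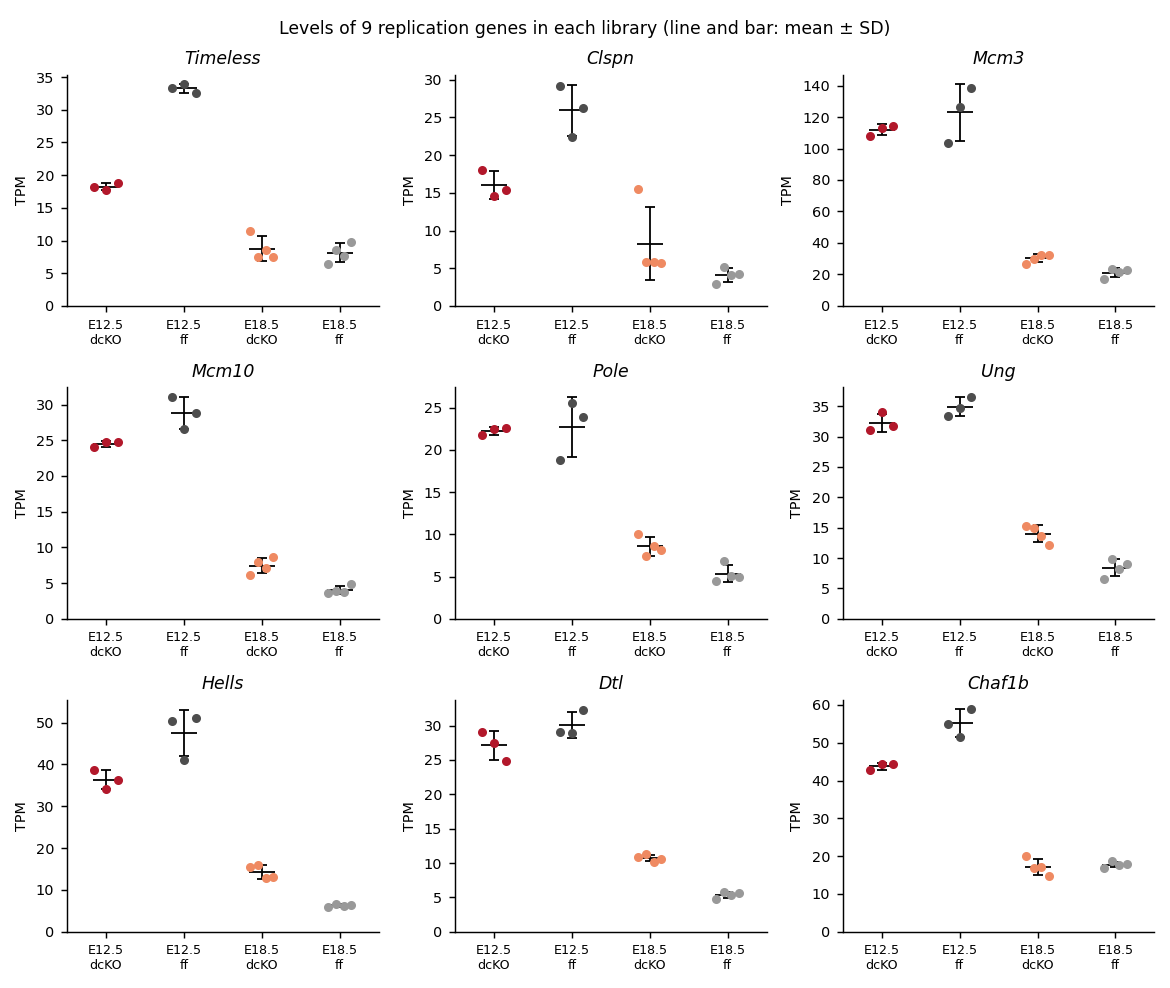
TPM of 9 genes in each library, with the mean and SD of each group as a line and bar. Timeless is at about the same level in all 3 dcKO libraries at E12.5, all below the 3 ff libraries, while Mcm3, Mcm10, Pole, Ung, Hells and Dtl are higher in all 4 libraries labelled dcKO at E18.5, and 1 Clspn value at 15.5 TPM is the shallow library.

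By promoter, 14 of the 16 genes with an E2F match rose at E18.5 (median 0.48), as did 8 of the 23 genes without one (median 0.16). At E12.5 the medians were -0.22 and -0.18. Gins3 and Rfc3 were the 2 genes with a match that missed the threshold at E18.5. The 9 genes with no promoter in the table were Mcm4, Gins1, Gins2, Gins4, Prim2, Pole, Rfc2, Tipin and Ccne2, and 3 of them rose. The difference between these sets was not tested. For Timeless the table's start lies 6001 bases inside the GENCODE M21 gene, and for Mcm7, which has a match, 539 bases inside. Their windows may therefore not be the promoters in use. The other 37 genes with a promoter had a start within 500 bases of the GENCODE M21 start.

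Whether the genotype effect differed in size between the stages was tested as the difference between the 2 effects, in 1 fit of all 14 libraries. This is not a test of a change of sign, and Timeless passed it with a negative value at both stages. Stage, dissected tissue and any other difference between the tables cannot be told apart in it. The test passed for 24 of the 48 genes, all with the higher value at E18.5, where 7.12% of 19327 genes were called in that direction and 9.41% in the other. The median difference was 0.50 (log2), against -0.03 over all tested genes. By sign 37 of the 48 genes were lower in dcKO at E12.5 and higher at E18.5, as were 25.9% of the 17109 genes tested at both stages. Dtl had the lowest p, at 0.96 (SE 0.11, edgeR adjusted p = 1.5e-04), followed by Hells at 0.95 (SE 0.13) and Timeless at 0.72 (SE 0.10). Pole differed by 0.87 (SE 0.12), Mcm10 by 0.89 (SE 0.13) and Mcm4 by 0.66 (SE 0.10).
For Mcm4 the 3 dcKO libraries at E12.5 had 65.9, 62.5 and 59.6 TPM, against 76.3, 70.8 and 83.4 TPM in ff. Its 4 libraries labelled dcKO at E18.5 had 27.6, 28.3, 29.0 and 29.6 TPM, against 17.77, 19.95, 18.09 and 21.26 TPM in ff. The groups were separate at both stages and in opposite orders. At E12.5 Dtl had 29.14, 27.44 and 24.92 TPM in dcKO, against 29.09, 28.99 and 32.32 TPM in ff. Hells had 38.57, 34.18 and 36.39 TPM in dcKO, against 50.29, 41.15 and 51.02 TPM in ff. Of these Dtl overlapped between the groups at E12.5 and Hells did not. Pole had 21.73, 22.51 and 22.61 TPM in dcKO, against 18.76, 25.59 and 23.88 TPM in ff. Mcm10 had 23.99, 24.79 and 24.71 TPM in dcKO, against 31.0, 26.62 and 28.89 TPM in ff. Pole overlapped, and Mcm10 was lower in every dcKO library. By role the difference passed in 9 of 10 licensing genes, in 3 of 3 Okazaki and uracil genes and in 2 of 3 fork protection genes, but in 0 of 6 clamp and loader genes, of which 1 (Rfc1, at 0.30) had an unadjusted p under 0.05 in edgeR, as did 31.4% of all tested genes. Of the nucleotide genes Tk1 alone passed (0.58). With 1 library left out at a time, 19 of the 48 genes were called in all 14 fits. Mcm5, Pola1 and Chaf1a were called in 13 of 14, Mcm6 in 5 and Tk1 in 3.

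All 48 genes were far lower at E18.5 than at E12.5 in ff. Stage, dissected tissue and any other difference between the tables cannot be told apart here. All 48 fell (29.9% of 19327 genes were called lower and 31.5% higher), by a median log2 fold change of -2.003, or 4.01-fold. The deepest falls were in Orc1, Mcm10 and Uhrf1. Orc1 had 0.88, 1.13, 1.01 and 0.76 TPM in E18.5 ff, against 7.03, 6.51 and 7.03 TPM in E12.5 ff (log2 fold change -2.97, SE 0.16, edgeR adjusted p = 1.4e-10). Mcm10, with its library values given above, had 3.59 to 4.88 TPM at E18.5 and 26.6 to 31.0 TPM at E12.5 (-2.80, SE 0.09). Uhrf1 had 16.93, 22.52, 18.99 and 23.24 TPM in E18.5 ff, against 133.14, 129.91 and 152.8 TPM in E12.5 ff (-2.80, SE 0.11).
The shallowest falls were in Rfc2, Prim2 and Orc6. Rfc2, a small loader subunit, had 107, 102, 115 and 113 TPM in E18.5 ff, against 159, 171 and 183 TPM in E12.5 ff (-0.78, SE 0.07). Prim2, the large primase subunit, had 23.07, 22.44, 23.47 and 24.47 TPM in E18.5 ff, against 37.06, 35.7 and 41.94 TPM in E12.5 ff (-0.73, SE 0.08). Orc6 had 56.82, 60.22, 57.97 and 62.47 TPM in E18.5 ff, against 87.76, 82.51 and 96.25 TPM in E12.5 ff (-0.60, SE 0.07). Even for these genes no E18.5 library reached an E12.5 library in TPM. The largest and the smallest fall, of Orc1 and Orc6, were in subunits of 1 complex.

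In dcKO 47 of the 48 genes fell between the stages (31.3% of all genes were called lower and 30.9% higher), by a median of -1.52, or 2.89-fold among those called. Gins2 was the exception (-0.79, SE 0.72), and without the shallow E18.5 library all 48 passed. The 2 genotypes share no library, and the difference between their stage changes is the test given above. Orc1 was at -2.05 in dcKO and -2.97 in ff, Dtl at -1.56 and -2.52, and Hells at -1.70 and -2.65. Rrm2 was at -2.17 in dcKO and -2.38 in ff, Chaf1b at -1.66 and -1.68, and Orc6 at -0.73 and -0.60.

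**Figure D4:**
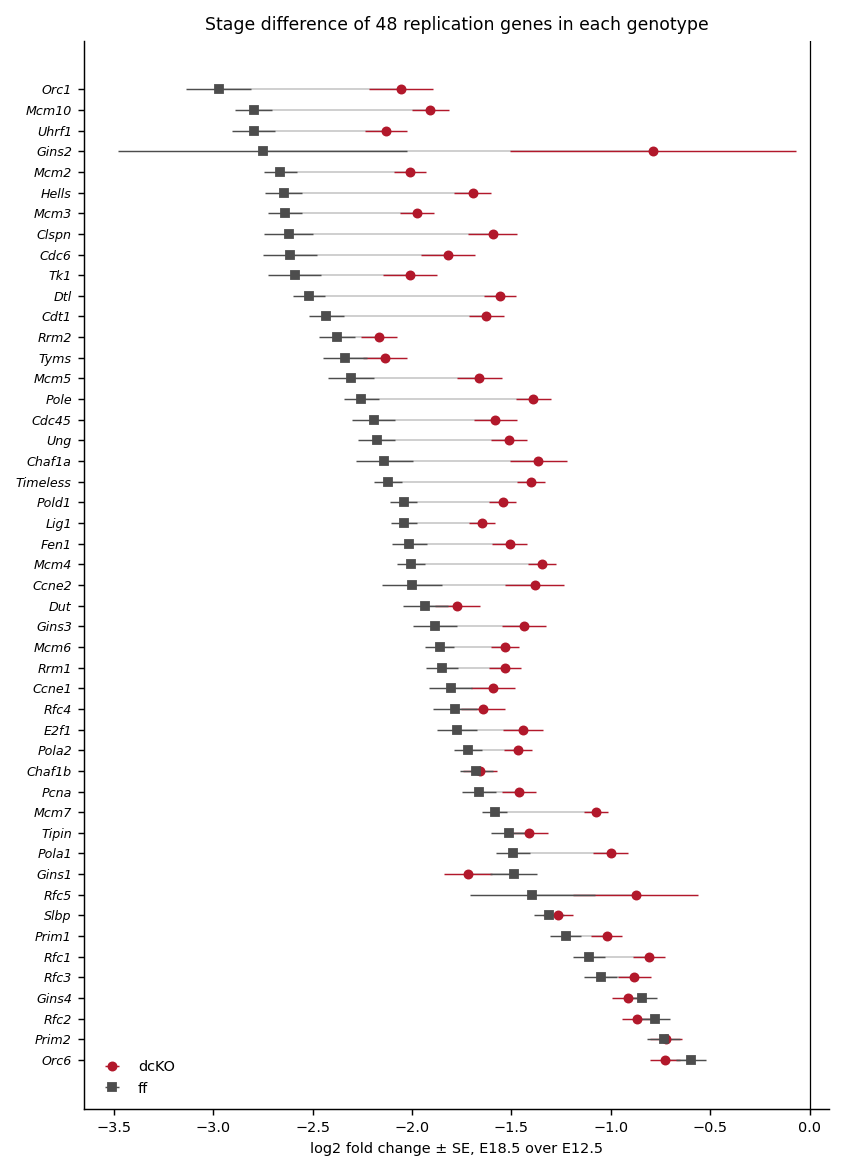
Log2 fold change of each gene, E18.5 over E12.5, in dcKO (circles) and ff (squares) with bars of 1 SE, in order of the fall in ff. Every value is below 0, and for most genes the dcKO point lies nearer to 0, with Gins1, Gins4, Rfc2 and Orc6 the other way round.

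Summed over the 48 genes, the level was 3649, 3693 and 3686 TPM in the E12.5 dcKO libraries, against 4104, 3932 and 4497 TPM in ff, a ratio of 0.880. At E18.5 it was 1594, 1583, 1560 and 1528 TPM in libraries labelled dcKO, against 1172, 1284, 1267 and 1312 TPM in ff, a ratio of 1.245. The groups did not overlap at either stage. Without Gins2 and Rfc5 the ratios were 0.877 and 1.23. By role the E12.5 ratio ran from 0.746 in fork protection to 0.959 in the clamp and loader genes, and the E18.5 ratio from 1.10 in fork protection to 1.36 in licensing. Without the shallow E18.5 library the fork protection ratio was 0.982 and the ratios of the other 8 roles lay between 1.15 and 1.38.

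Genes of other steps and cell types moved alongside, and their part in these results was not tested. At E18.5 15.6% of all tested genes were called higher and 16.6% lower. Of 25 G2 and mitosis genes 22 rose at E18.5 and 0 fell (median 0.47), led by Kif20a, a kinesin of cytokinesis (1.08), and at E12.5 all 25 had a negative value with Mki67, the proliferation antigen, past the test (-0.68). Apical progenitor (radial glia) markers at E18.5 rose in 9 of 15 and fell in 1 (Hopx, picked after its value was seen), with Nr2e1 (1.03), Pax6 (0.95) and Notch1 (0.89) among the raised. At E12.5 0 of these 15 passed in edgeR, and 7 of them had an unadjusted p under 0.05, as did 19.2% of all tested genes. Of 10 pan-neuronal markers 9 fell at E18.5, Stmn2 by 0.68 and Tubb3 by 0.63 on the log2 scale. Of 11 ventral progenitor and interneuron markers 11 rose at E18.5, and of 10 intermediate progenitor markers 6 rose and 1 fell.
Set against the summed apical progenitor markers, the members' sum was 1.11 ± 0.02 in E12.5 dcKO and 1.27 ± 0.10 in ff (SD, n = 3 each), and 0.575 ± 0.027 in E18.5 libraries labelled dcKO and 0.520 ± 0.024 in ff (SD, n = 4 each). The E18.5 ranges of this ratio, 0.545 to 0.610 and 0.494 to 0.550, overlapped. The marker sum rests mostly on Fabp7 and Vim. Fabp7 had 1382 to 1653 TPM in E18.5 libraries labelled dcKO and 1457 to 1654 TPM in ff. By median log2 fold change at E18.5 the 15 markers stood at 0.45 and the 48 members at 0.25. The ratio of sums therefore does not show that the members rose more than most of the markers. Against the G2 and mitosis genes the ratio was 1.65 ± 0.02 in E12.5 dcKO and 1.54 ± 0.01 in ff, and 2.23 ± 0.05 in E18.5 libraries labelled dcKO and 2.62 ± 0.19 in ff. At both stages the ranges of that ratio were separate, so the mitosis genes differed between genotypes by more than the replication genes did.

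**Figure D5:**
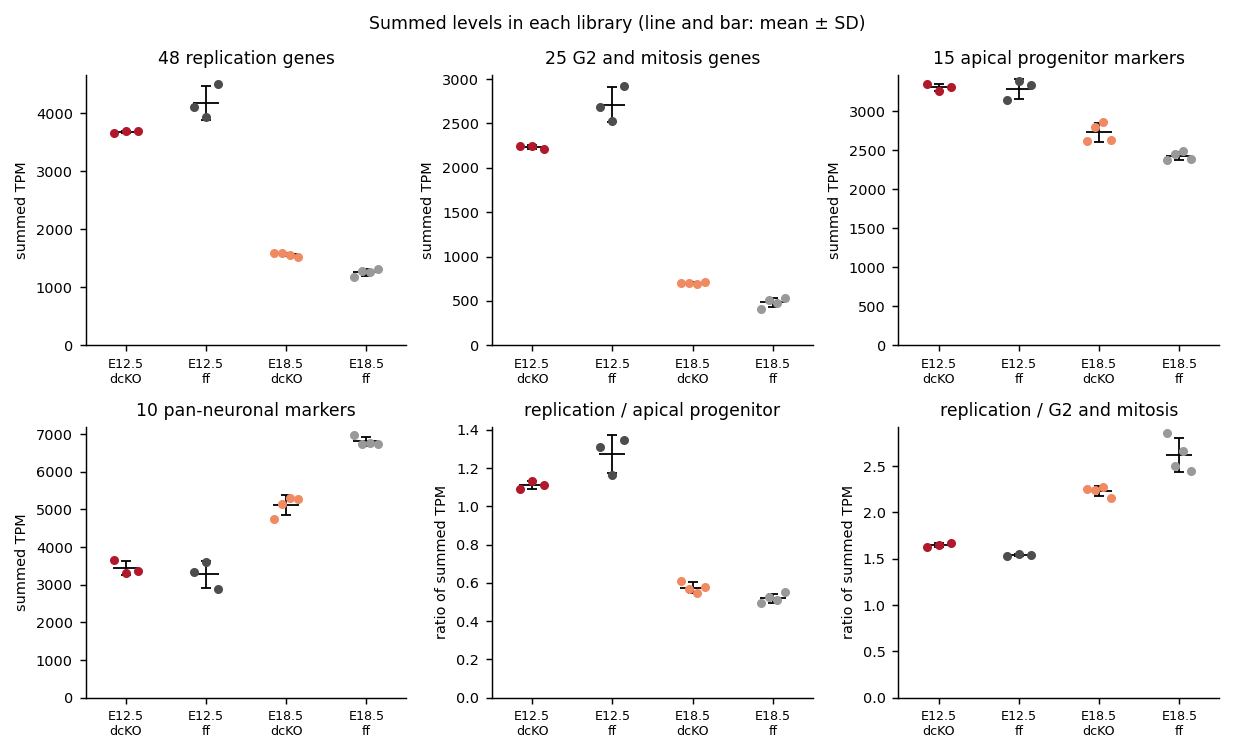
Summed TPM of the 48 replication genes, of 25 G2 and mitosis genes, of 15 apical progenitor and 10 pan-neuronal markers, and 2 ratios of these sums, 1 point per library with mean and SD. The replication sum is lower in dcKO at E12.5 and higher at E18.5, the pan-neuronal sum is lower in libraries labelled dcKO at E18.5, and the ratio to apical progenitor markers overlaps at E18.5.

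Other replication genes showed a like mix. Of 58 such genes in 4 further lists 57 were tested. At E12.5 0 fell and 1 rose, Tk2, the mitochondrial thymidine kinase (0.46, edgeR adjusted p = 0.047). At E18.5 23 rose and 4 fell (median 0.14), where 15.6% of all tested genes were called higher and 16.6% lower. Raised genes included Recql4 and Mtbp, which act in helicase activation (0.93 and 0.71), Cdca7, a partner of Hells (0.68), and Atad5, which unloads the clamp (0.45). Those that fell were Orc3 (-0.40), Rrm2b, the p53-inducible reductase subunit (-0.35), Pold2 (-0.26) and Dck (-0.22). In ff 51 of the 57 fell between the stages and 4 rose (Rrm2b, Tk2, Pold4 and Pole4, named after their values were seen). In that comparison 29.9% of all tested genes were called lower and 31.5% higher.
Of 28 E2F, pocket protein and cyclin regulators 7 rose at E18.5 and 0 fell, where 15.6% of all tested genes were called higher and 16.6% lower. Ccnd2 (cyclin D2) was at 0.59, Skp2 at 0.44, Rbl1 (p107) at 0.44 and Ccna2 (cyclin A2) at 0.31. At E12.5 0 of the 28 passed in edgeR and 13 had an unadjusted p under 0.05, as did 19.2% of all tested genes. Nearest the threshold were E2f7 at -0.53 and Ccnd2 at -0.48 (edgeR adjusted p = 0.051 each). Cdkn1a, the p53 target that encodes the inhibitor p21 and was picked after its value was seen, was at 0.15 at both stages, with adjusted p = 0.45 at E12.5 and 0.082 at E18.5 in edgeR.

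The authors' deposited table of DESeq2 comparisons listed 7 of the 48 genes as lower and 0 as higher at E12.5, where it called 7.56% of its genes lower. At E18.5 the authors' deposited table listed 24 of 47 as higher and 2 as lower, where it called 14.4% and 17.6% of its genes.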

How the data were processed

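RNA from 14 libraries was prepared with TruSeq Stranded mRNA, per the labels' protocols. Trim Galore, STAR, RSEM and DESeq2 are named without versions in the submitters' processing notes, and the genome build, annotation and strand setting of the counting are not given in the sources used here. The authors deposited RSEM expected counts (estimated counts per gene, not normalized) and TPM values, scaled per transcript length and per 1000000 within each library. The authors' deposited comparison tables hold log2 fold changes and p-values from DESeq2, and a mean normalized signal that was not used. The order of groups in those tables is not stated, and their sign matched dcKO over ff for 98.1% of tested genes at E12.5 and 97.2% at E18.5. Exons of 16 of the 48 genes overlap a gene on the other strand in GENCODE M21, so their counts are uncertain where strand was not used. Among them are Timeless, Pole, Orc1, Ccne2, Gins2, Rfc5 and Chaf1a. Counts of Gins2, Rfc5 and Chaf1a stood apart in the shallow E18.5 library, and those of Timeless and Pole did not. A link to strand was not tested.

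Columns were matched to groups by the genotype in their names and the stage of their table. The description of 11 of 14 samples gives a library name that the tables use for a column of another group. Expected counts were rounded and filtered with filterByExpr, scaled by TMM and tested with edgeR 4.0.16 (R 4.3.3; quasi-likelihood, 2-sided, Benjamini-Hochberg adjustment over all genes tested, threshold 0.05). Genotypes were compared within each stage, and the stage changes and their difference in 1 fit of 14 libraries. Alternatives used DESeq2 1.42.0, limma 3.58.1 and other scalings, filters, covariates and library sets. The fits were also run on simulated counts with known changes, and the outcome is not reported here. That simulation did not model unusual values of single libraries. Replicate pairs differed by more than sampling noise, with chi-square over degrees of freedom of 4.0 to 41.65. The 2 shallow libraries give less precise values. The genes and lists were chosen with earlier results of these data known.

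Values in every library of the groups compared are given for the genes called at E12.5, the gene with the lowest p at E18.5 in each role, called genes opposed to most calls, the 6 with the lowest p for the difference between stages, and the 3 with the largest and the 3 with the smallest fall in ff. From other lists, genes with the lowest p are named. Clspn and Tipin at E12.5, Chaf1a and the genes with unusual values in shallow libraries were added after their values were seen, as were sums without the shallow E18.5 library.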

Additional observations from a re-analysis of the deposited data

Results flagged for a closer look

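For 24 of the 48 genes the genotype effect differed between the stages and their dissected tissues by the test of the difference itself. The 6 with the lowest p were Dtl (log2 difference 0.96), Hells (0.95), Timeless (0.72), Pole (0.87), Mcm10 (0.89) and Mcm4 (0.66), each higher at E18.5.

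In 4 genes 1 of the 4 E18.5 dcKO libraries stood apart from the other 3 in TPM, and in each it was the shallow replicate 1. The gap to the nearest library, as a share of the group's range, was 0.986 for Clspn (15.5 TPM, against 5.75 to 5.89 TPM) and 0.956 for Rfc2 (106 TPM, against 124.14 to 124.97 TPM). It was 0.931 for Lig1 (30.0 TPM, with the other 3 at 29.4 TPM) and 0.841 for Fen1 (20.2 TPM, against 25.2 to 26.1 TPM). The critical value is 0.829, and 102 groups of 4 were examined, of which chance would pick about 1 in 20.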

How the results depend on the processing

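Of 516 values of named genes under the alternatives 494 kept their direction and side of the threshold, 21 lost the call and 1 gained it (Rrm1 at E18.5 with upper quartile scaling, adjusted p = 0.043). None of the 23 results these values belong to changed direction. Comparing counts with mean TPM, 6 genes that were not called at E18.5 and 2 at E12.5 (Gins2 and Rfc4) had opposite signs. The calls lost were 10 for Chaf1b, 4 each for Timeless at E12.5 and Rfc1, and 3 for Clspn at E18.5. At E12.5 the count of genes called lower was 1. It was 2 with DESeq2 size factors, limma-voom or no filter, 3 with a length and GC offset, 5 in 1 fit of 14 libraries, 7 with the DESeq2 Wald test and 0 with limma on log2(TPM + 1) or log2(TPM + 0.1). Over all 17853 genes tested at E12.5 the main fit called 27 lower and 7 higher. Calls in either direction numbered 56 with DESeq2 size factors, 124 with limma-voom, 152 with the offset and 1203 with the DESeq2 Wald test. They numbered 1079 of 19327 genes in 1 fit, 244 of 28458 with no filter and 1 on either TPM scale. With 1 library left out the members called lower ranged between 0 and 3, and all genes called between 0 and 571. At E18.5 the count called lower was 1. It was 2 with DESeq2 size factors, the DESeq2 Wald test, the length and GC offset or 1 fit, and 0 with upper quartile scaling, sex as a covariate, male libraries alone or either TPM scale, and between 0 and 2 with 1 library left out. The count called higher there ranged between 17 and 24 with 1 library left out. The median log2 fold change at E18.5 was 0.25. It was 0.33 with sex as a covariate, 0.33 on log2(TPM + 1), 0.35 on log2(TPM + 0.1) and 0.35 as a ratio of mean TPM, an alternative chosen after seeing the data. The median difference between stages was 0.50, and 0.39 without both shallow libraries, with a range of 0.39 to 0.52 with 1 library left out. The log2 ratio of the summed level at E18.5 was 0.32 in TPM and 0.22 in TMM-scaled CPM. The causes of these shifts were not tested. No paired analysis was possible because the compared groups share fewer than 2 numbers in the titles and the table columns carry no usable pairing. Depth limits the 2 shallow libraries most. The shallow E18.5 library also held Gins2 and Rfc5 counts far above the other E18.5 libraries, as the shallow E12.5 library did for Gins2. Whether depth accounts for these counts was not tested.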

Other observations

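Lists of other cell types also held calls at E18.5, where 15.6% of all tested genes were called higher and 16.6% lower. Of 5 microglia markers 3 were called higher at E18.5, of 5 astrocyte markers 2, of 5 endothelial markers 1 and of 5 meningeal fibroblast markers 1. Of 5 oligodendrocyte lineage markers 1 was called higher and 2 lower, and of 6 choroid plexus and 6 tested erythroid genes 0 passed in edgeR. The summed erythroid level was 679, 2759, 594.5 and 2579 TPM in E18.5 libraries labelled dcKO, against 3648, 4557, 4167 and 6194 TPM in ff, and the groups did not overlap. The summed choroid plexus level was 6.57 TPM in E18.5 dcKO replicate 3 and 1454 to 3320 TPM in the other 7 libraries. Their part in the results on replication genes was not tested.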
